A study of Homo sapiens with 8 samples.

Results

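Interferon-stimulated genes are the transcripts that cells switch on when interferon binds its receptors, and 45 of them were followed here in MDA-MB-231, a human breast cancer line of the triple-negative type, on a soft or a stiff substrate. A probe set was taken for a gene only where that gene was its single annotated symbol, and each gene was read by its brightest probe set over the 8 arrays. This gave 44 of the 45 genes, out of 19775 genes read the same way; STAT2 was not analysed here. All cultures were of this 1 line in the same serum-containing medium, on stiff or soft for 2 days, with biological replicates A, B, C and D on each and 1 array per replicate. The stiffness of the substrates and the way the replicate cultures were separated are not given in the sources used here, so p-values reflect only the spread between these samples, which may be technical. The title of the series places the work among studies of mechanical cues, mevalonate metabolism and the GTPase RhoA. Values are log2 RMA values, the unit in which the authors deposited them, and a difference is the soft mean minus the stiff mean on that scale, so that a difference of 1 would be a doubling.

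Type I interferons bind a receptor whose kinases JAK1 and TYK2 phosphorylate STAT proteins. STAT2, a partner STAT and IRF9 then form the complex ISGF3, which binds the interferon-stimulated response element in the promoters of its targets, while STAT dimers formed after interferon gamma bind the gamma-activated site. The products detect foreign nucleic acid, block steps of viral replication or feed back on the pathway, and many tumour lines express part of the set without added interferon. In RNA from a whole culture, a change in every cell and a change in the share of cells that express a gene cannot be told apart.

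The promoters are shown first because the response element is searched for there. RefSeq start sites (GRCh38.p14) gave windows of 300 bases, 250 before and 50 after the start, for 36 of the 44 genes; IFIT2, IFITM2, IRF7, MX2, OAS2, OASL, TRIM22 and USP18 were not matched. The core of the response element was searched as GAAA, any 2 bases and GAAA again, and the gamma-activated site as TTCNNNGAA, with N for any base, each on both strands. The 6 stretches printed here cover the 150 bases before the start. GBP1 is shown as the gene with the largest rise and IFIT5 as the one gene that fell and had a window; ISG20, IFI27, IRF9 and IFIT1 were added after their values were seen, as strong risers, as the subunit of ISGF3 and as the neighbour of IFIT5. Capitals mark matches to either motif that lie whole within the stretch.
GBP1 (chr1:89065209-89065358, minus strand): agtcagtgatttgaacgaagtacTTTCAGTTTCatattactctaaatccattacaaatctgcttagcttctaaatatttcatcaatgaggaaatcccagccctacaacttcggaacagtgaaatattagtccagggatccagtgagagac
ISG20 (chr15:88638866-88639015, plus strand): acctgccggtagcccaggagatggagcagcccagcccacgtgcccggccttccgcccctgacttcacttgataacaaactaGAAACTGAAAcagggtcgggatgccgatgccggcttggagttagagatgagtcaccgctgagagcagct
IFI27 (chr14:94110586-94110735, plus strand): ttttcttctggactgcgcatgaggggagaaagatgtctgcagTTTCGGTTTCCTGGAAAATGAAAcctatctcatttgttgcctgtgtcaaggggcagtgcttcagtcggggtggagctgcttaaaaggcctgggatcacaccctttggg
IRF9 (chr14:24161115-24161264, plus strand): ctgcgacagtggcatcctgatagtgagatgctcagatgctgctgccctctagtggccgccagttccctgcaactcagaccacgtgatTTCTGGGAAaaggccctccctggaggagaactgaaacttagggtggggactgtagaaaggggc
IFIT5 (chr10:89414418-89414567, plus strand): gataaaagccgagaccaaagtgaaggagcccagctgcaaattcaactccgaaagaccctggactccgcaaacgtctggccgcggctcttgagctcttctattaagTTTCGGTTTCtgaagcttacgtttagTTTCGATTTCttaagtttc
IFIT1 (chr10:89392473-89392622, plus strand): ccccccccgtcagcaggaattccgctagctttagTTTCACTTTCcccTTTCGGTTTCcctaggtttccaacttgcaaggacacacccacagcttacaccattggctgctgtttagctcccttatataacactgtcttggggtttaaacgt

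The response element core was found in 30 of the 49 windows of these genes (61.2%), against 1255 of all 35116 windows (3.57%). Counted by gene, 25 of 36 had it in at least 1 window. Windows can overlap, so a site can be counted more than once, as in IFI44, IFI27 and PLSCR1. The core of PARP9 and that of DTX3L are the same bases on opposite strands, counted for both genes. In the IFI27 stretch 2 cores flank and overlap a gamma-activated site, which makes the run of capitals longer than a single motif. GBP1 and ISG20 each held 1 core, IFIT1 and IFIT5 each 2 in the stretch printed, and IRF9 held a gamma-activated site only. The gamma-activated site was found in 13 of the 49 windows (26.5%) against 2689 of all windows (7.66%). Both motifs overlapped each other in 22 of all windows, among them windows of BST2, IFI27, IFITM1 and MX1. Genes with and without the core were found on both sides of the test described next: 9 of the 14 genes that rose on soft and had a window held it, as did IFIT5, and so did 15 of the 21 genes that did not pass the test. A match describes letters only and is no evidence of binding in these cells.

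Cells on the soft substrate had higher levels of many interferon-stimulated genes by a small margin, while IFIT2 and IFIT5 were lower. Of the 44 genes, 17 rose (38.6%, where 4.39% of all genes did), 2 fell (4.55%, where 5.93% of all genes did) and 25 did not pass the test (limma, adjusted p under 0.05 over all probe sets). The genes were chosen with earlier results of these data known, so these shares describe the list and do not test it. GBP1, a guanylate-binding GTPase, and the exonuclease ISG20 rose most, each 1.57-fold, followed by IFI35 (1.5-fold), IFI27 (1.47-fold) and OAS2 (1.47-fold). IFIT2 and IFIT5 fell by 0.48 and 0.32 on the log2 scale. The median difference of the 44 genes was 0.20, beside 0.0075 over all genes, and 36 of the 44 (81.8%) lay above 0, as did 52.3% of all genes. The changes were small: 3 of the 44, GBP1, ISG20 and IFI35, differed by at least 1.5-fold, as did 1.02% of all genes. The median size of change among the 19 called genes was 1.30-fold, beside 1.27-fold among all 2040 genes called (10.3% of all).

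**Figure D1:**
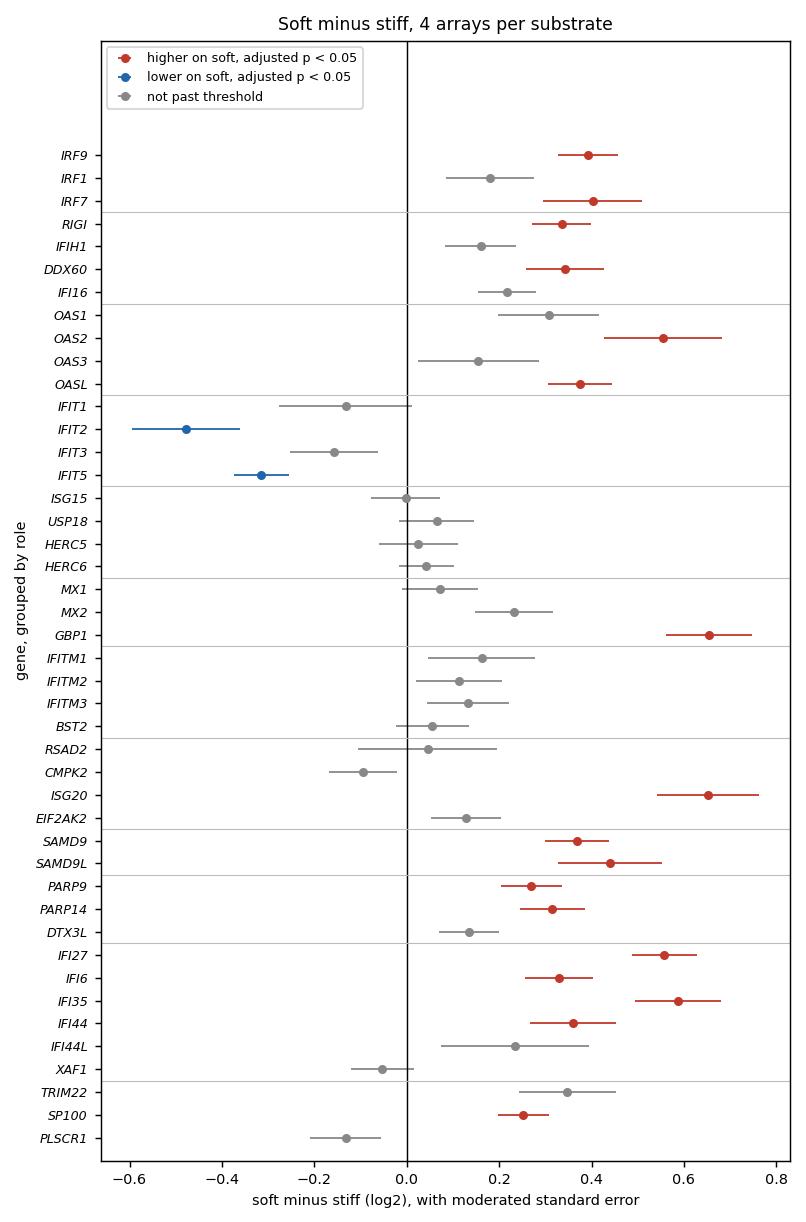
Soft minus stiff difference on the log2 scale (horizontal axis) for the 44 genes (vertical axis, grouped by role), with the moderated standard error as bars. Red points rose and blue points fell past the threshold; the 4 IFIT genes all lie left of 0, while GBP1 and ISG20 lie farthest right at 0.66 and 0.65.

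All soft arrays lay above all stiff arrays for 19 genes (43.2%, against 8.78% of all genes) and below them for 2 (4.55%, against 11.2% of all genes). All 17 genes that rose were among the former, together with IFI16 and TRIM22. A background level of 6.12 was taken from 15 genes silent in breast cells, and 37 of the 44 genes had a group mean above it. The other 7 were OAS1, USP18, MX1, MX2, RSAD2, CMPK2 and IFI44L, whose differences background compresses. Of the 37 genes above background 45.9% rose and 5.41% fell, where 6.91% and 9.49% of all genes above background did. The count of genes that rose depended on single arrays: it was 11 without stiff C (2.97% of all genes then rose), 8 without stiff D (3.25%) and 9 without soft D (2.81%), and the count that fell was 1 without stiff A (3.84%), stiff B (2.77%), soft A (3.58%) or soft B (3.69%). Leaving out any 1 of the 8 arrays kept the call of 9 genes, GBP1, ISG20, IFI35, IFI27, IRF9, OASL, SAMD9, RIGI and IFIT5. How many of all genes kept a call in this way was not counted.

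**Figure D2:**
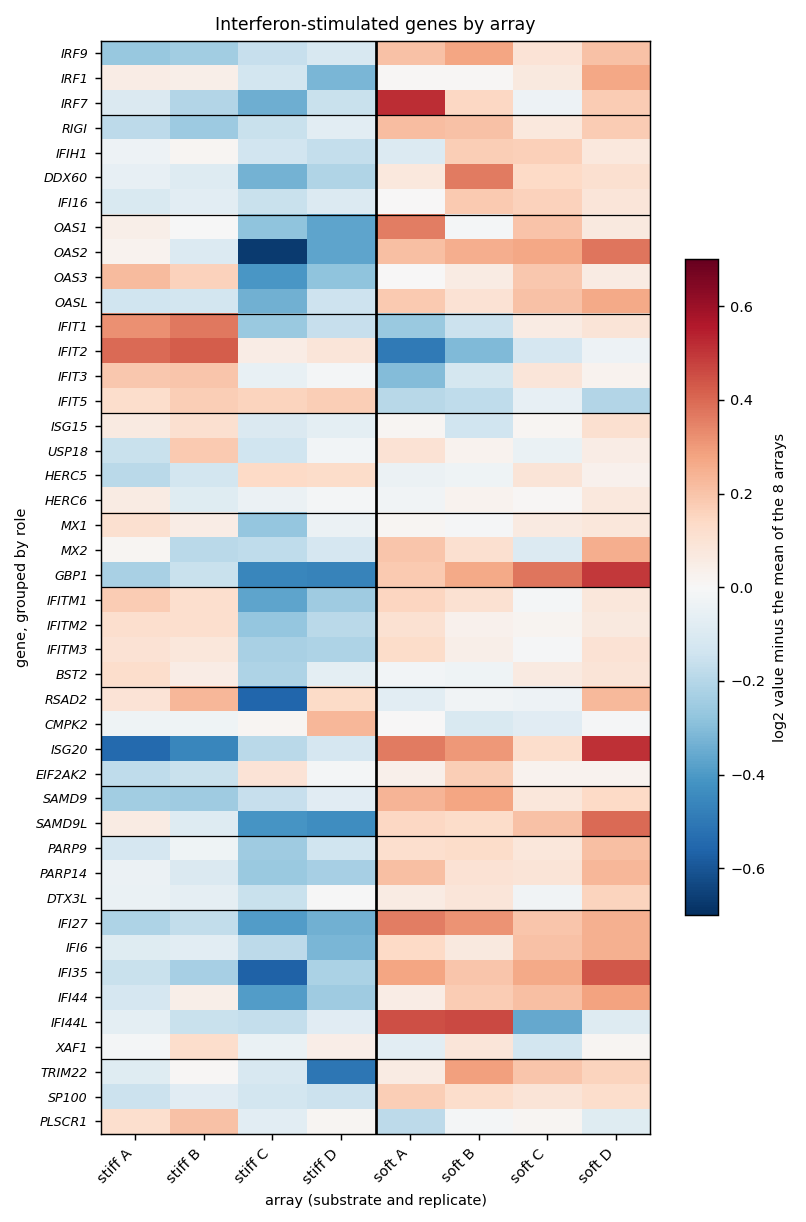
Each gene's log2 value minus its mean over the 8 arrays (colour, red above and blue below that mean), for the 44 genes (rows, grouped by role) on the 4 stiff and 4 soft arrays (columns). Most rows are red on the soft arrays, the IFIT rows are blue on soft A and B, and stiff C is the lowest array for OAS2, OAS3 and the IFITM genes.

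Of the 3 transcription factors measured, 2 rose. IRF9, the DNA-binding subunit of ISGF3, read 8.35, 8.37, 8.45 and 8.50 on stiff A, B, C and D, and 8.82, 8.89, 8.71 and 8.82 on soft A, B, C and D. Every soft array lay above every stiff array, and the difference was 0.39 (SE 0.065, adjusted p = 0.00463). IRF7, which drives interferon alpha transcription and is itself interferon-induced, read 7.43, 7.33, 7.19 and 7.38 on stiff A, B, C and D, and 8.05, 7.68, 7.50 and 7.71 on soft A, B, C and D. Soft A stood highest and soft C lay close to stiff A; the difference was 0.40 (SE 0.107, adjusted p = 0.0384). This call was kept only with soft C left out (adjusted p = 0.0181), and it was lost without any other array, from stiff A (adjusted p = 0.0555) to stiff C (0.101), with soft A (0.061), soft B (0.0688), stiff D (0.0716), soft D (0.0774) and stiff B (0.089) in between. IRF1, the factor induced first by interferon gamma, read 8.47, 8.46, 8.29 and 8.10 on stiff A, B, C and D, and 8.43, 8.43, 8.49 and 8.69 on soft A, B, C and D, so that the groups overlapped, with stiff D lowest and soft D highest. Its difference was 0.18 (SE 0.0946, adjusted p = 0.292).

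Among 4 sensors of foreign nucleic acid, RIGI and DDX60 rose. RIGI, the cytosolic receptor for RNA with a triphosphate end, read 9.43, 9.36, 9.46 and 9.54 on stiff A, B, C and D, and 9.83, 9.82, 9.69 and 9.79 on soft A, B, C and D. The soft arrays were all higher, by 0.34 (SE 0.0642, adjusted p = 0.00937). Of its other probe sets, one rose by 0.50 (adjusted p = 0.000837) and one differed by 0.20 (adjusted p = 0.0616). DDX60, a helicase that assists RNA sensing, read 8.81, 8.78, 8.54 and 8.66 on stiff A, B, C and D, and 8.94, 9.23, 9.01 and 8.98 on soft A, B, C and D. The groups did not overlap and differed by 0.34 (SE 0.0845, adjusted p = 0.0289), a call lost without stiff B (adjusted p = 0.0502), soft D (0.0513), soft B (0.0676), stiff D (0.0749) or stiff C (0.0772). IFI16, a nuclear DNA sensor, read 10.42, 10.45, 10.37 and 10.43 on stiff A, B, C and D, and 10.53, 10.71, 10.69 and 10.61 on soft A, B, C and D. Each soft array was above each stiff array, but the difference of 0.22 (SE 0.0624, adjusted p = 0.0526) missed the threshold. Another IFI16 probe set rose by 0.25 (adjusted p = 0.0214) and the remaining one differed by 0.065 (adjusted p = 0.687). With the mean of all IFI16 probe sets the rise was 0.18 (adjusted p = 0.0437). IFIH1, which senses long double-stranded RNA, read 6.86, 6.91, 6.76 and 6.73 on stiff A, B, C and D, and 6.80, 7.07, 7.06 and 6.97 on soft A, B, C and D. Soft A lay among the stiff arrays, and the difference was 0.16 (SE 0.0767, adjusted p = 0.243).

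The OAS enzymes make the oligoadenylates that activate the antiviral ribonuclease L, except for OASL, a relative without that activity that enhances RIG-I signalling. OAS2 read 8.47, 8.35, 7.78 and 8.08 on stiff A, B, C and D, and 8.66, 8.70, 8.72 and 8.82 on soft A, B, C and D. The soft arrays lay within 0.16 of each other, while stiff C and D were well under stiff A and B. The difference was 0.56 (SE 0.127, adjusted p = 0.0208), and a second OAS2 probe set rose by 0.47 (adjusted p = 0.0047). The remaining OAS2 probe set, under background, differed by 0.02 (adjusted p = 0.926), and the mean of all OAS2 probe sets rose by 0.35 (adjusted p = 0.00828). Without soft D or stiff D the call of OAS2 was lost (adjusted p = 0.0591 and 0.0569). OASL read 7.31, 7.32, 7.11 and 7.30 on stiff A, B, C and D, and 7.63, 7.55, 7.65 and 7.71 on soft A, B, C and D. All soft arrays were higher, by 0.38 (SE 0.069, adjusted p = 0.00786), and its second probe set rose too, by 0.24 (adjusted p = 0.0347). OAS3 read 7.72, 7.66, 7.09 and 7.22 on stiff A, B, C and D, and 7.50, 7.56, 7.69 and 7.56 on soft A, B, C and D. Stiff A lay above every soft array and stiff C and D below every one, so the groups overlapped, with a difference of 0.15 (SE 0.13, adjusted p = 0.541). OAS1 lay under background at 5.27, 5.23, 4.95 and 4.86 on stiff A, B, C and D, and 5.59, 5.22, 5.43 and 5.30 on soft A, B, C and D, and differed by 0.31 (SE 0.109, adjusted p = 0.111).

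The IFIT proteins bind viral RNA ends and arrest translation, and all 4 had lower means on soft, 2 of them past the threshold. IFIT2 read 9.99, 10.02, 9.65 and 9.68 on stiff A, B, C and D, and 9.10, 9.29, 9.48 and 9.56 on soft A, B, C and D. No soft array reached the stiff range, stiff A and B were highest and soft A lowest, and the fall was 0.48 (SE 0.117, adjusted p = 0.0282). The IFIT2 call was lost without stiff A (adjusted p = 0.0731), stiff B (0.0832), soft A (0.07) or soft B (0.0727), and a second IFIT2 probe set differed by -0.02 (adjusted p = 0.946). With the mean of both IFIT2 probe sets the call was lost (-0.25, adjusted p = 0.185). IFIT5 read 10.65, 10.70, 10.68 and 10.70 on stiff A, B, C and D, and 10.33, 10.35, 10.47 and 10.32 on soft A, B, C and D. Its stiff arrays agreed within 0.05, all soft arrays were lower, and the fall was 0.32 (SE 0.0596, adjusted p = 0.0088); a second IFIT5 probe set differed by -0.24 (adjusted p = 0.0569).

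IFIT1 read 9.67, 9.72, 9.09 and 9.19 on stiff A, B, C and D, and 9.09, 9.20, 9.41 and 9.44 on soft A, B, C and D. Stiff A and B were above all other arrays, and stiff C and D fell among the soft ones. The difference was -0.13 (SE 0.144, adjusted p = 0.652), with a 95% interval of -0.45 to 0.18. IFIT3 read 11.20, 11.21, 10.96 and 11.00 on stiff A, B, C and D, and 10.71, 10.89, 11.10 and 11.04 on soft A, B, C and D. Its groups overlapped in the same way, with soft A lowest, and differed by -0.16 (SE 0.096, adjusted p = 0.373). In IFIT1, IFIT2 and IFIT3 the values of soft A and B lay under those of soft C and D, the reverse of the order among the stiff arrays.

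**Figure D3:**
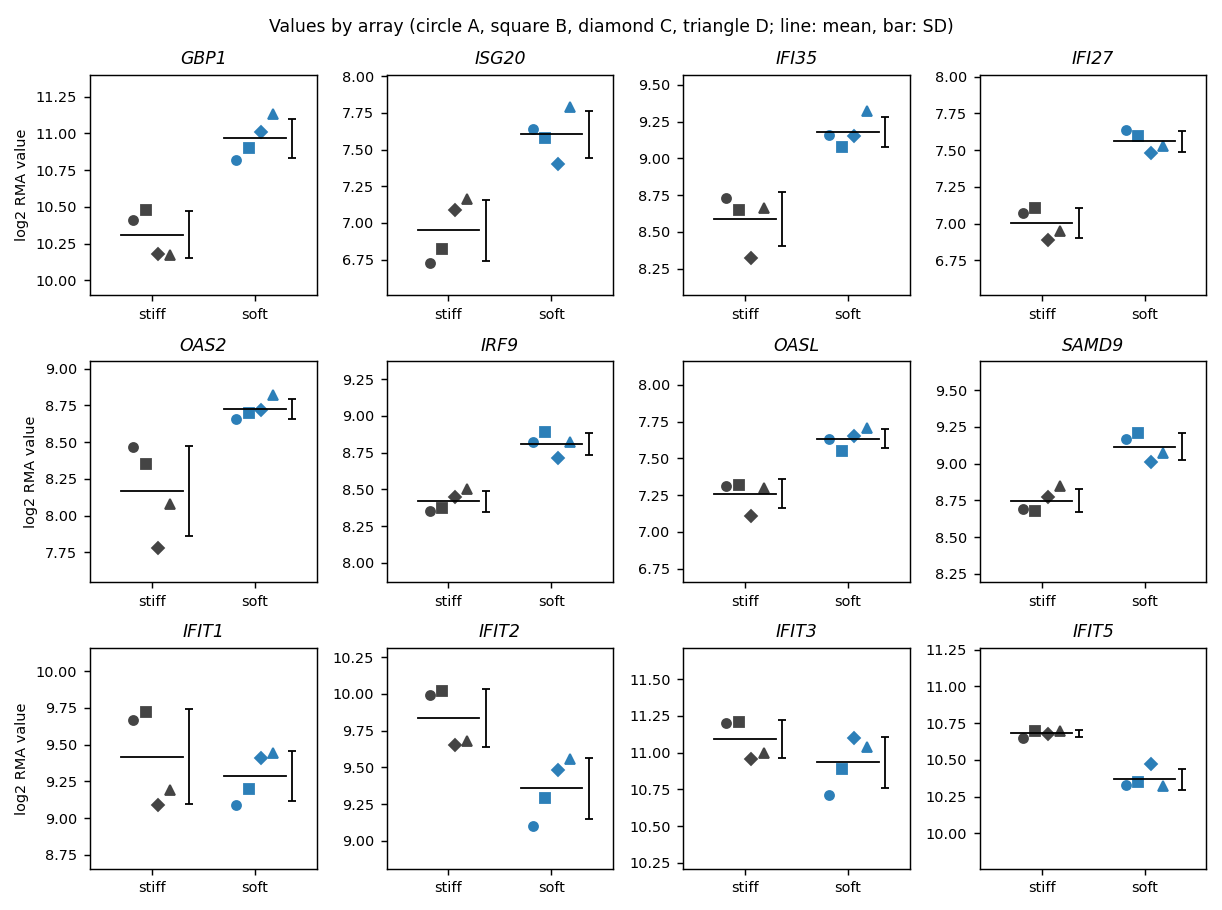
Log2 RMA values (vertical axis, a span of 1.5 in every panel) of 12 genes on the stiff and soft arrays (horizontal axis), with a marker for each replicate, a line at the group mean and a bar for the SD (n = 4 arrays per group). The upper 8 genes are higher on all soft arrays, while IFIT2 and IFIT5 are lower on all of them and IFIT1 and IFIT3 overlap.

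None of the 4 genes of the ISG15 system passed the test (limma), and none had an unadjusted p under 0.05. Of all 19775 genes 4942 had one. ISG15 is a ubiquitin-like protein that HERC5 attaches to targets and USP18 removes, and USP18 also dampens the interferon receptor. ISG15 itself read 10.55, 10.60, 10.39 and 10.42 on stiff A, B, C and D, and 10.50, 10.35, 10.50 and 10.60 on soft A, B, C and D. The groups covered nearly the same range, with a difference of -0.0025 (SE 0.075, adjusted p = 0.989) and a 95% interval of -0.17 to 0.16. HERC5 differed by 0.03 (SE 0.0854, adjusted p = 0.903), HERC6 by 0.04 (SE 0.0594) and USP18, under background, by 0.07 (SE 0.0814). The intervals were -0.16 to 0.21 for HERC5 and -0.09 to 0.17 for HERC6.

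Of 3 interferon-induced GTPases 1 passed the test. GBP1, which coats intracellular pathogens, read 10.41, 10.48, 10.18 and 10.17 on stiff A, B, C and D, and 10.82, 10.90, 11.01 and 11.13 on soft A, B, C and D. The lowest soft array stood 0.34 above the highest stiff array, and the difference was 0.66 (SE 0.093, adjusted p = 0.00215), which ranked 72 of 19775 genes. A second GBP1 probe set rose by 0.64 (adjusted p = 0.00317), a dim one by 0.48 (adjusted p = 0.0464), and the remaining one differed by 0.27 (adjusted p = 0.0789). With only probe sets without shared probes this last one stands for GBP1, and the call was lost (adjusted p = 0.0912); with the mean of all GBP1 probe sets the rise was 0.51 (adjusted p = 0.00148). MX1 and MX2, dynamin-like GTPases that trap viral nucleocapsids, lay under background. MX1 differed by 0.07 (SE 0.0825, adjusted p = 0.669), and MX2 by 0.23 (SE 0.0843, adjusted p = 0.118).

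Of the 4 restriction factors in membranes none passed the test (limma), and none had an unadjusted p under 0.05. Of all 19775 genes 4942 had one. The IFITM proteins hinder fusion of enveloped viruses, and BST2, or tetherin, holds budding virions at the cell surface. IFITM3 read 12.03, 12.01, 11.70 and 11.71 on stiff A, B, C and D, and 12.06, 11.97, 11.92 and 12.03 on soft A, B, C and D. Its soft arrays lay between 11.92 and 12.06, near stiff A and B and above stiff C and D. IFITM2 read 11.35, 11.35, 10.96 and 11.04 on stiff A, B, C and D, and 11.34, 11.26, 11.25 and 11.30 on soft A, B, C and D, with the same layout. The differences were 0.13 (SE 0.0884, adjusted p = 0.422) for IFITM3, 0.11 (SE 0.0932) for IFITM2, 0.16 (SE 0.116) for IFITM1 and 0.06 (SE 0.0793) for BST2. Each of the 4 had stiff C and D below stiff A and B. The probe sets of IFITM1, IFITM2 and IFITM3 carry the manufacturer's mark for shared probes, so these paralogs may not be fully separated.

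ISG20, an exonuclease that degrades single-stranded RNA, read 6.73, 6.82, 7.09 and 7.16 on stiff A, B, C and D, and 7.64, 7.58, 7.40 and 7.79 on soft A, B, C and D. All soft arrays were higher, and here stiff A and B were the lowest. The difference was 0.65 (SE 0.11, adjusted p = 0.0051), and the second ISG20 probe set rose by 0.54 (adjusted p = 0.0109). The kinase EIF2AK2, or PKR, which halts translation on double-stranded RNA, differed by 0.13 (SE 0.0756, adjusted p = 0.358). A dim EIF2AK2 probe set rose by 0.42 (adjusted p = 0.0116), and a bright one differed by -0.015 (adjusted p = 0.912). With the mean of all EIF2AK2 probe sets the rise was 0.18 (adjusted p = 0.0424). The radical-SAM enzyme RSAD2, or viperin, and the nucleotide kinase CMPK2 lay under background on all 8 arrays, between 3.33 and 4.42, and differed by 0.04 (SE 0.151) and -0.10 (SE 0.0728).

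SAMD9 and SAMD9L, paralogs that restrict poxviruses and slow growth, rose together. SAMD9 read 8.69, 8.68, 8.77 and 8.85 on stiff A, B, C and D, and 9.17, 9.21, 9.01 and 9.07 on soft A, B, C and D. The groups stayed apart, with a difference of 0.37 (SE 0.0693, adjusted p = 0.00869), and the second SAMD9 probe set rose by 0.39 (adjusted p = 0.0154). SAMD9L read 7.83, 7.68, 7.36 and 7.34 on stiff A, B, C and D, and 7.92, 7.90, 7.98 and 8.17 on soft A, B, C and D. Stiff A lay within 0.07 of soft B, and the difference was 0.44 (SE 0.113, adjusted p = 0.0337). Another SAMD9L probe set rose by 0.85 (adjusted p = 0.0042) and the remaining one differed by 0.25 (adjusted p = 0.182). The SAMD9L call was kept with stiff A left out and lost without stiff B (adjusted p = 0.0518), soft B (0.0556), soft C (0.0579), soft A (0.0604), stiff C (0.09), stiff D (0.091) or soft D (0.0917).

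PARP9 and DTX3L form a complex that modifies chromatin, and PARP14 is a related ADP-ribosyltransferase. PARP9 read 7.55, 7.64, 7.42 and 7.53 on stiff A, B, C and D, and 7.79, 7.80, 7.75 and 7.88 on soft A, B, C and D. All soft arrays were higher, and the means differed by 0.27 (SE 0.0657, adjusted p = 0.0271). A second PARP9 probe set, under background and the only one without shared probes, differed by 0.08 (adjusted p = 0.713), and with the mean of both the call was lost (0.17, adjusted p = 0.126). PARP14 read 7.60, 7.54, 7.38 and 7.41 on stiff A, B, C and D, and 7.85, 7.74, 7.73 and 7.87 on soft A, B, C and D. These groups did not overlap either, and their means differed by 0.32 (SE 0.0708, adjusted p = 0.0191). A second PARP14 probe set, under background, differed by 0.13 (adjusted p = 0.519), and with the mean of both the call was lost (0.22, adjusted p = 0.0969). DTX3L read 9.10, 9.08, 8.99 and 9.14 on stiff A, B, C and D, and 9.20, 9.23, 9.12 and 9.30 on soft A, B, C and D. Soft C fell within the stiff range, and the difference was 0.14 (SE 0.0641, adjusted p = 0.239). A promoter window of PARP9 and that of DTX3L, which run in opposite directions, share 137 bases. The PARP9 call was lost without soft A (adjusted p = 0.051), stiff A (0.0568), soft B (0.0583), stiff D (0.0681), stiff C (0.0754) or soft D (0.0763), and that of PARP14 without stiff C (0.0559), soft D (0.0564) or stiff D (0.0586).

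Of 6 further interferon-induced proteins 4 rose. IFI27, a small mitochondrial protein, read 7.07, 7.11, 6.89 and 6.95 on stiff A, B, C and D, and 7.64, 7.60, 7.48 and 7.53 on soft A, B, C and D. The lowest soft array was 0.37 above the highest stiff array, with a difference of 0.56 (SE 0.0702, adjusted p = 0.00117). IFI35, a leucine zipper protein, read 8.73, 8.65, 8.32 and 8.66 on stiff A, B, C and D, and 9.16, 9.08, 9.15 and 9.32 on soft A, B, C and D. Stiff C was lowest and soft D highest, and the difference was 0.59 (SE 0.0935, adjusted p = 0.00386). IFI6, a relative of IFI27 that protects mitochondria, read 8.10, 8.11, 8.00 and 7.86 on stiff A, B, C and D, and 8.32, 8.25, 8.39 and 8.43 on soft A, B, C and D. Its groups did not overlap, with a gap of 0.14 between the nearest arrays, and the means differed by 0.33 (SE 0.0741, adjusted p = 0.019).

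IFI44 read 8.70, 8.86, 8.43 and 8.57 on stiff A, B, C and D, and 8.87, 9.00, 9.03 and 9.10 on soft A, B, C and D. Stiff B and soft A nearly met, and the difference was 0.36 (SE 0.0928, adjusted p = 0.0342); a dim second IFI44 probe set rose by 0.44 (adjusted p = 0.0144). Its neighbour IFI44L lay under background at 4.28, 4.19, 4.18 and 4.27 on stiff A, B, C and D, and 4.80, 4.81, 3.99 and 4.26 on soft A, B, C and D, with soft C and D apart from soft A and B, and differed by 0.23 (SE 0.16, adjusted p = 0.433). XAF1, a proapoptotic antagonist of XIAP, differed by -0.05 (SE 0.069, adjusted p = 0.719). The IFI6 call was lost without stiff D (adjusted p = 0.0533) or soft D (0.0564). That of IFI44 was kept without soft A or stiff B only and was lost without stiff A (adjusted p = 0.0573), soft C (0.0655), soft B (0.074), stiff C (0.084), stiff D (0.0911) or soft D (0.092).

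SP100, a scaffold of nuclear bodies that silences viral genomes, read 9.94, 10.01, 9.96 and 9.94 on stiff A, B, C and D, and 10.26, 10.21, 10.18 and 10.21 on soft A, B, C and D. Replicates agreed closely, and the difference was 0.25 (SE 0.0559, adjusted p = 0.0177). It rested on 1 of 6 SP100 probe sets: the next one differed by 0.06 (adjusted p = 0.602), the mean over all 6 by -0.02 (adjusted p = 0.865), and without stiff D the call was lost (adjusted p = 0.0538). TRIM22, a ubiquitin ligase that restricts retroviruses, read 6.40, 6.49, 6.37 and 5.98 on stiff A, B, C and D, and 6.54, 6.77, 6.68 and 6.64 on soft A, B, C and D. Soft was above stiff on every array, with stiff D lowest, but the difference of 0.35 (SE 0.104, adjusted p = 0.0626) missed the threshold. In the fit to the mean of all probe sets per gene, TRIM22, with 1 probe set, just passed at the same difference (adjusted p = 0.0496). PLSCR1, a phospholipid scramblase, differed by -0.13 (SE 0.0766, adjusted p = 0.344).

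Some of these genes are chromosomal neighbours. They lay next to each other, with at most 2 other coding genes between, in 9 clusters that held 23 of the 44 genes. On chromosome 10 IFIT2, IFIT3, IFIT1 and IFIT5, in this order, all had differences below 0. On chromosome 12 OAS1, OAS3 and OAS2 all lay above 0, and SAMD9 and SAMD9L on chromosome 7 both rose. On chromosome 3 PARP9 and PARP14 rose and DTX3L, which lies between them, differed by 0.14 without passing the test. The HERC6 and HERC5 pair on chromosome 4, the IFITM genes on chromosome 11, MX2 and MX1 on chromosome 21 and CMPK2 and RSAD2 on chromosome 2 held no called gene.

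The stiff arrays were not alike for these genes. Averaged over the 44 genes after each was centred on its 8-array mean, the level was -0.026, -0.019, -0.211 and -0.136 on stiff A, B, C and D, and 0.081, 0.095, 0.071 and 0.145 on soft A, B, C and D. In this mean, which includes the 17 genes that rose, all soft arrays were above all stiff arrays, and stiff C lay lowest. Over the 25 genes that did not pass the test the groups overlapped. Their level was 0.035, 0.047, -0.164 and -0.097 on stiff A, B, C and D, and 0.024, 0.049, 0.025 and 0.081 on soft A, B, C and D. Stiff C and D were both below stiff A and B in 25 of the 44 genes (56.8%), where 27.8% of all genes showed this order. The 4 OAS and the 4 membrane genes all did, while IRF9, RIGI, SAMD9, ISG20, HERC5, EIF2AK2 and CMPK2 showed the opposite order, seen in 22.1% of all genes. The labels give no batch or date that separates these arrays, and the cause of this split was not tested. Fits against each pair of stiff arrays alone follow.

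Against stiff A and B alone, 7 of the genes rose (2.92% of all genes did) and 1 fell (2.66%); against stiff C and D alone, 14 rose (2.27%) and 0 fell (1.96%), each by limma with the 4 soft arrays in both comparisons. IFIT5 was at -0.31 (adjusted p = 0.0631) and -0.32 (adjusted p = 0.058), IFIT2 at -0.65 (adjusted p = 0.0242) and -0.31 (adjusted p = 0.215). The median difference was 0.19 against A and B and 0.29 against C and D. GBP1, ISG20, IFI35 and IFI27 were the 4 genes called in both, at 0.52, 0.83, 0.49 and 0.47 against A and B and at 0.79, 0.48, 0.69 and 0.64 against C and D. None of the 19 called genes changed sign between these comparisons. That was fixed in advance, because in each of these genes all soft arrays lay on the same side of all stiff arrays. In 10 of the 44 genes the sign did differ: OAS3 was at -0.11 and 0.42, IFIT1 at -0.41 and 0.14, IFITM1 at -0.07 and 0.39, and ISG15 at -0.09 and 0.08, with IFITM2, IFITM3, BST2, MX1, RSAD2 and HERC5 as the others. The shares of all genes that were called in both comparisons or differed in sign were not counted.

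**Figure D4:**
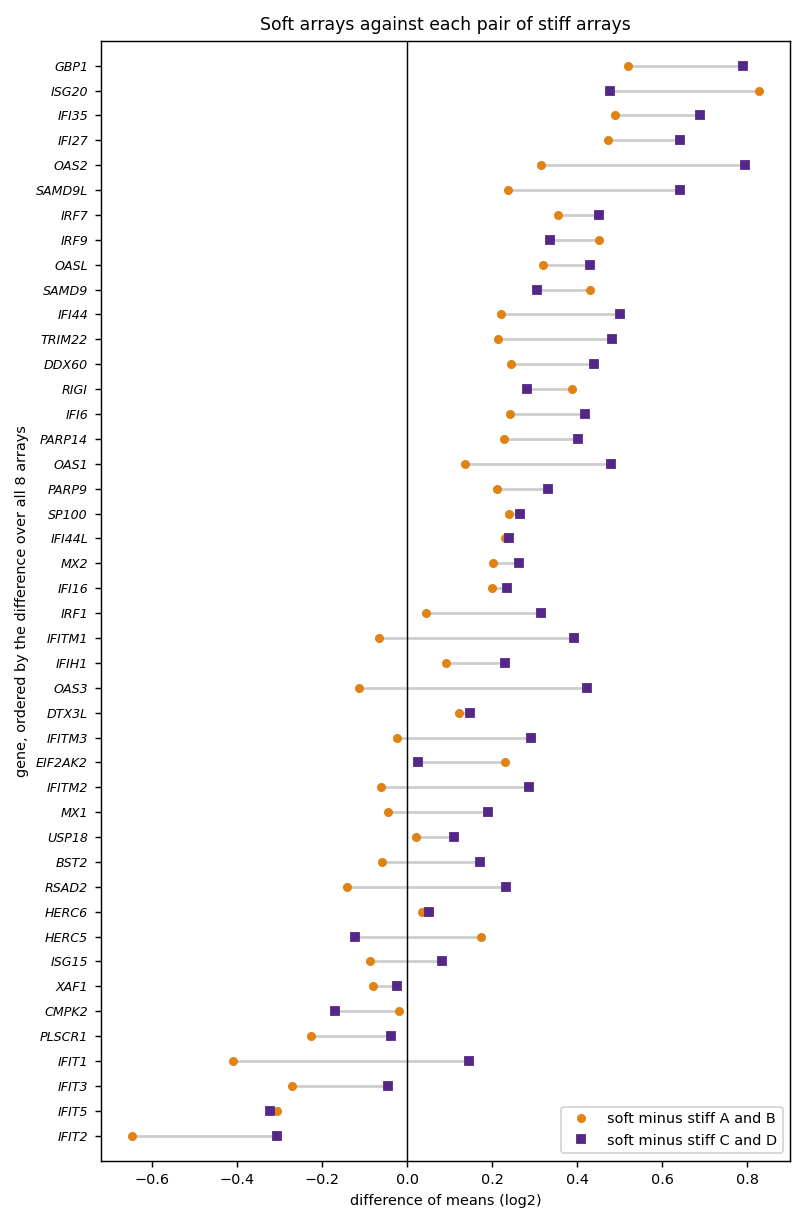
Difference between the mean of the 4 soft arrays and the mean of stiff A and B (orange circles) or of stiff C and D (purple squares) on the log2 scale (horizontal axis) for the 44 genes (vertical axis, ordered by the difference over all 8 arrays). Most squares lie right of the circles, as for OAS2 at 0.32 and 0.80 and OAS3 at -0.11 and 0.42, while GBP1, ISG20, IFI35 and IFI27 lie right of 0 in both.

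Of 43 other genes of the pathway measured, 2 rose (4.65%) and 2 fell (4.65%), near the shares among all genes, and their median difference was 0.035. They were 19 ligands, receptors and relay genes, of which 1 rose and 0 fell, 7 negative regulators, 12 genes of upstream sensing and 5 of nucleic acid clearance. None of 9 interferon genes passed the test (limma), and 1 had an unadjusted p under 0.05, as had 4942 of all 19775 genes. All 9, IFNB1 and IFNL1 among them, lay under background on every array, between 2.56 and 4.94. Of 6 receptor chains IFNLR1, the specific chain of the lambda interferon receptor, rose by 0.29 (SE 0.0672, adjusted p = 0.022), from 7.20 ± 0.09 to 7.49 ± 0.07 (SD, n = 4 arrays); its dimmer probe set differed by 0.05 (adjusted p = 0.779), and with the mean of both the call was lost (0.17, adjusted p = 0.0913). The IFNLR1 call was lost without soft A (adjusted p = 0.0533), stiff A (0.0554), stiff D (0.0558), soft B (0.0594) or stiff C (0.0628). IFNGR2 differed by 0.27 (adjusted p = 0.0544), and the type I receptor chains IFNAR1 and IFNAR2 by -0.10 each (SE 0.0644 and 0.0576). IFNGR1 and IL10RB differed by 0.04 and 0.06. For IFNGR1 the probe set decided: with the mean of its probe sets it rose by 0.25 (adjusted p = 0.0225), and with only probe sets without shared probes by 0.72 (adjusted p = 0.0011).

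None of the 4 kinases and STAT genes measured in the relay passed the test (limma). An unadjusted p under 0.05 was found in 1 of them, and in 4942 of all 19775 genes. JAK1 differed by 0.16 (SE 0.0602, adjusted p = 0.144), TYK2 by 0.08, JAK2 by 0.015 and STAT3 by -0.015. With the mean of all its probe sets JAK1 rose by 0.27 (adjusted p = 0.0092). Of 7 negative regulators PTPN2, the phosphatase that removes phosphate from JAK1 and nuclear STATs, fell by 0.24 (SE 0.0553, adjusted p = 0.0205), from 10.50 ± 0.02 to 10.25 ± 0.04 (SD, n = 4 arrays). A second PTPN2 probe set fell by 0.76 (adjusted p = 0.0203), and the other bright one differed by -0.16 (adjusted p = 0.172). The PTPN2 call was lost without soft D (adjusted p = 0.0507), soft B (0.0526), stiff B (0.0534), stiff C (0.0558) or stiff D (0.0561). SOCS1, an inhibitor of the receptor kinases, differed by -0.20 (adjusted p = 0.187), and its relative SOCS3 by -0.05 (SE 0.0947). Of the 7 regulators 5 lay below 0 and 2 above, with a median of -0.165, and 4 had an unadjusted p under 0.05 (limma).

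Of 12 genes of nucleic acid sensing upstream of interferon, TLR3, the endosomal receptor for double-stranded RNA, rose by 0.27 (SE 0.0659, adjusted p = 0.0286), from 7.21 ± 0.09 to 7.48 ± 0.05 (SD, n = 4 arrays). CGAS, the cytosolic DNA sensor, fell by 0.36 (SE 0.0825, adjusted p = 0.0217), from 7.93 ± 0.12 to 7.57 ± 0.12 (SD, n = 4 arrays). The other CGAS probe set above background differed by -0.16 (adjusted p = 0.147). With the mean of all probe sets the calls of both were lost, TLR3 at 0.15 (adjusted p = 0.144) and CGAS at -0.15 (adjusted p = 0.165), and with only probe sets without shared probes CGAS, then under background, was at 0.07 (adjusted p = 0.741). The TLR3 call was kept only without stiff D or soft C (adjusted p = 0.0349 and 0.0365) and was at 0.0559 to 0.0786 without each of the others. CGAS missed the threshold when soft D (adjusted p = 0.0607), stiff B (0.0604), soft B (0.0601) or stiff C (0.0574) was left out. The partners downstream of these sensors, STING1, MAVS, TBK1 and IRF3, differed by 0.03, 0.09, -0.03 and 0.09. None of 5 genes that clear nucleic acids passed the test (limma), SAMHD1 coming nearest at -0.19 (adjusted p = 0.0548). Of these 5 genes 2 had an unadjusted p under 0.05, as had 4942 of all 19775 genes.

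**Figure D5:**
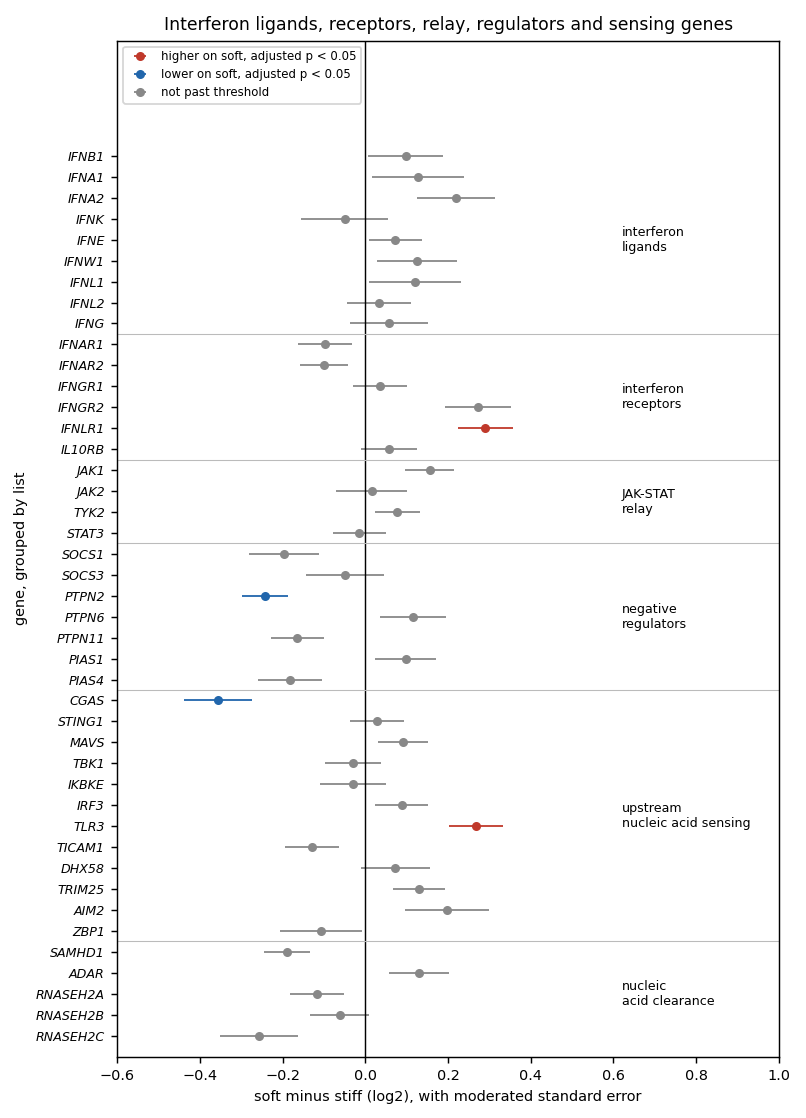
Soft minus stiff difference on the log2 scale (horizontal axis) with the moderated standard error for 43 genes of interferon production, reception, relay, regulation and nucleic acid sensing (vertical axis, by list). IFNLR1 (0.29) and TLR3 (0.27) rose, PTPN2 (-0.24) and CGAS (-0.36) fell, and the other 39 did not pass the threshold.

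The cells carried the markers of their line: VIM, CD44, AXL, CAV1, MET and EGFR read 11.66 to 14.61 on all arrays, and AXL fell by 0.23 (adjusted p = 0.0318). The 7 luminal markers lay between 3.32 and 9.98, 4 of them above background, and none passed the test (limma). The 6 leukocyte markers measured lay between 3.59 and 6.38, 2 of them with a group mean above background, and none passed the test (limma). One of these, CD3E, is also among the 15 silent genes that set the background level. In neither list did a gene have an unadjusted p under 0.05, as 4942 of all 19775 genes had. PTPRC, which defines leukocytes, read 3.59 to 4.16. Arrays correlated at 0.9932 to 0.9982 over all probe sets.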

How the data were processed

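Total RNA of 8 MDA-MB-231 cultures was hybridised to Affymetrix arrays. The authors deposited log2 values made with RMA, per the submitters' processing notes; the log2 scale was read from the values. The software version and probe definition are not given in the sources used here. RMA equalises the distributions of the arrays, so a shift shared by every gene is lost, and it shrinks the differences of dim probe sets. Of 54675 probe sets 62 controls were left out, 41091 of the rest had 1 gene symbol, 1801 several and 11721 none.

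Soft and stiff were compared with limma 3.58.1 in R 4.3.3 (lmFit, eBayes without trend, all 8 arrays, two-sided), with Benjamini-Hochberg adjustment over 54613 probe sets and a threshold of 0.05. Precision is limited by the number of arrays. The background level is the 95th percentile of the means of 15 silent genes. Scripts were tested on simulated data. The members and lists were chosen with earlier results of these data known. Genes are named in full by array where they were called, had an adjusted p of 0.05 to 0.10, were among the 5 brightest or share a family with a called gene, and pathway genes where called or in the receptor and relay lists; other names were added after their values were seen. Some items are not reported here. Alternatives were a replicate block, other scalings, filters, variance models, array weights and probe set choices, each array left out, and each pair of stiff arrays alone.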

Additional observations from a re-analysis of the deposited data

Results flagged for a closer look

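In 114 groups of 4 arrays, 5 had 1 array far from the others, where chance gives about 1 in 20 groups. OASL read 7.11 on stiff C and 7.30 to 7.32 on the other stiff arrays. EIF2AK2 read 9.99 on soft B and 9.84 to 9.85 on the other soft arrays. RSAD2, under background, read 4.41 on soft D against 4.11 to 4.16. CMPK2, under background too, read 3.67 on stiff D against 3.41 to 3.45. JAK1 read 11.13 on stiff A against 11.06 to 11.07.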

How the results depend on the processing

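With all arrays 17 of the 44 genes rose and 2 fell, and of 43 other pathway genes 2 rose and 2 fell; the median difference of the 44 was 0.20. With a replicate block for the letters A to D, 12 rose (3.21% of all genes did) and 1 fell (4.13%), and 1 pathway gene rose and 1 fell. Over all probe sets, the deviations of same-lettered arrays from their group means correlated at 0.122, -0.118, 0.0516 and -0.0447. Arrays of different letters were not compared in this way, so whether the letters pair the arrays was not tested. Leaving out each array in turn gave 8 to 16 genes that rose, 1 to 2 that fell, 0 to 3 pathway genes that rose and 0 to 2 that fell, where 2.75% to 4.25% of all genes rose and 2.77% to 6.06% fell, with a median of 0.175 to 0.247. Against stiff A and B alone 7 rose and 1 fell, with 0 pathway genes up and 1 down, and against stiff C and D alone 0 fell and 0 pathway genes passed either way, with a median of 0.285; both use fewer arrays. Pathway genes that rose numbered 4 of 31 with probe sets above background (11.2% of all genes rose). With a trended robust variance 4 rose (6.11%) and 4 fell (8.89%). With the mean of all probe sets 4 rose (5.06%) and 1 fell (6.47%), as did 1 of the 44 genes. With only probe sets without shared probes, 11 of the 34 genes that have one rose (3.52% of all genes did) and 1 fell (4.87%). Of 38 pathway genes 1 fell. The called genes IFI35, IRF7, DDX60 and IFIT5 have no such probe set and were not read in this setting. SP100 turned to -0.02 with the mean of all its probe sets and CGAS to 0.0675 without shared probes, where only a probe set under background is left. Of the values of called genes under the 20 alternatives, 347 kept direction and call, 107 kept direction only and 2 turned; the other causes were not tested. Signal near background limits 7 of the 44 genes.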
